A study of Mus musculus with 8 samples.

Results

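Complement is a cascade of blood and tissue proteins that tags cells and debris and recruits phagocytes. C1q, bound to antibody or to dying cells, activates the proteases C1r and C1s, which cut C4 and C2. The resulting enzyme cuts C3, the step at which all routes meet, while factor B builds a second C3-cutting enzyme that amplifies the signal. In tumours, C1q is known as a product of macrophages, and fibroblasts and tumour cells are known to make C1r, C1s, C3 and the C1 inhibitor.

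The 9 complement genes described here were chosen by name, and each was found once among the 32098 gene rows of the expression table. They are the C1q chains C1qa, C1qb and C1qc, the protease C1ra, its inhibitor Serping1, the C3-cutting enzyme parts C2, C4b and Cfb, and C3. RNA was sequenced from 8 tumours of 4T1, a mouse mammary carcinoma line, labelled wild type. In 4 tumours, replicates 1, 2, 3 and 4 of the group ICI, the treatment was a checkpoint inhibitor without radiation. The other 4, replicates 1, 2, 4 and 5 of the group RI, had radiation as well. The design text speaks of 3 replicates for each group, whereas the sample list holds 4, and none was left out. The labels do not name the inhibitor, the radiation dose, the mouse strain or age, or whether a sampled tumour lay in the irradiated field, and no untreated tumour is among the samples. They do not say that tumours came from separate animals, so every p-value here reflects variation among these libraries only, and some of it may be technical.

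The deposited values were FPKM, fragments scaled by gene length and library total, so levels of different genes are compared per length. The totals behind them, recovered from the steps between low values, ran from 27013100 to 42622700 fragments. Libraries ICI 1 and RI 4 stood apart. In ICI 1 the summed FPKM of 8 neutrophil markers was 22217 (213 to 664 in ICI 2, 3 and 4), and in RI 4 rows of ribosomal RNA type took 60.7% of the summed FPKM, against 0.968% to 2.25% elsewhere. Mitochondrial genes took 10.7% to 17.2% of the summed FPKM in the 4 ICI tumours and 7.86% to 9.23% in RI 1, RI 2 and RI 5. In RI 4 their share was 3.59%, of a sum that the ribosomal RNA rows enlarged. This share moved with the groups in every comparison below, and its part in the differences was not tested. The median FPKM of genes tested was 5.86 in RI 4 and 6.36 to 7.51 in the others. Of the tumour line's epithelial markers, Krt8 and Krt18 averaged 698 and 621 FPKM in ICI and 510 and 408 in RI. Epcam averaged 2.08 in ICI, though only 0.0678 and 0.0372 in ICI 2 and ICI 3, and 0.345 in RI. Krt5 was at or near 0. In whole tumours, fewer cells of a type and less RNA per cell cannot be told apart.

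RefSeq windows of 300 bases around the gene start (250 before, 50 after, GRCm38.p6) were held for 4 of the 9 genes, C1qb, C1qc, C1ra and C3. The windows of C1qb (chr4:136886151-136886450, minus strand) and C1qc (chr4:136892865-136893164, minus strand) are shown because these genes varied together from tumour to tumour, and that of C3 (chr17:57228087-57228386, minus strand) because C3 rose in RI. Capitals mark a match on either strand to AGGAAGT, a core bound by ETS factors such as PU.1, in C1qb and C1qc, and to TTGCNNAA, a core bound by C/EBP factors, in C3.
C1qb: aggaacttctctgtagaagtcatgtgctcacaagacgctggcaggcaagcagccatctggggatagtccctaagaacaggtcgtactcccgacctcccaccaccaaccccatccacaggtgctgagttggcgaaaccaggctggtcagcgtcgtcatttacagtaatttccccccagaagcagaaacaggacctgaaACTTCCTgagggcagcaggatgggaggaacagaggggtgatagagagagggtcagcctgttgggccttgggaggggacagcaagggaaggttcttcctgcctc
C1qc: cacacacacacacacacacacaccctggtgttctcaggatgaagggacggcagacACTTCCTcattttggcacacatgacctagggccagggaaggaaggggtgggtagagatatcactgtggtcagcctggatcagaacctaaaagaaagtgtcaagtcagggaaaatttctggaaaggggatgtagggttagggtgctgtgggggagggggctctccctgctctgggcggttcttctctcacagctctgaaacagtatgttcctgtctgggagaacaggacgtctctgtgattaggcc
C3: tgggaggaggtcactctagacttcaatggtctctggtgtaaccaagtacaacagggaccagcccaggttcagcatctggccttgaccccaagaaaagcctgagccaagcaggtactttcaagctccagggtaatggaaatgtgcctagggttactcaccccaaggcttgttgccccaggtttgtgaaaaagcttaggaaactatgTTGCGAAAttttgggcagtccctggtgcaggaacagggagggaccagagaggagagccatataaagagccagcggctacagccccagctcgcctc

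Among all 32851 windows of this length, 9.35% held AGGAAGT, 10.8% held TTGCNNAA and 8.56% held GAAANNGAA (a core bound by IRF factors), each searched on both strands. In the windows of C1qb, C1qc and C3 no letters matched GAAANNGAA, and the capitals above are their only matches to the 3 motifs. A match is a run of letters and no evidence of binding, and AGGAAGT was picked with the windows in view.

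C1ra lies in a cluster of related genes on chromosome 6, and its neighbour C1rb is a near copy of it. The stretches of their windows that align are shown, from C1ra (chr6:124512522-124512670, plus strand) and C1rb (chr6:124570180-124570328, plus strand), since both genes rose in RI and their fragments are hard to assign. Of the aligned positions 139 were identical, 9 differed and 2 were gaps (92.7% identical), and capitals mark bases with no identical partner.
C1ra: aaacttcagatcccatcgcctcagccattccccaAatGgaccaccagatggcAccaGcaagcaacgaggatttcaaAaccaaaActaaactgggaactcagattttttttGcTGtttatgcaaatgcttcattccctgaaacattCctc
C1rb: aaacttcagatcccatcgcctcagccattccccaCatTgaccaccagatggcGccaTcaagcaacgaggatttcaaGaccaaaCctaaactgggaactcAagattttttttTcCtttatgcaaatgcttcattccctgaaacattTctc
Both stretches held 1 match to TTGCNNAA, at base 267 of the C1ra window and at base 116 of the C1rb window, outside the bases that differ.

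The C1q chains were the most abundant of the 9 genes. Over the 8 tumours C1qa averaged 174 FPKM (SD 80.1), above at least 97.0% of the genes tested in every tumour, followed by C1qb at 114 (SD 45.2) and C1qc at 72.1 (SD 24.7). C3 averaged 68.2 FPKM (SD 50.5), Serping1 22.1 (SD 13.4), C1ra 21.1 (SD 7.83) and C4b 16.7 (SD 12.9). C2 and Cfb were near the floor at 0.887 (SD 0.279) and 0.642 (SD 0.565). C1qa exceeded C1qb, C1qb exceeded C1qc, C3 exceeded Serping1 and C4b exceeded C2 in 8 of 8 tumours. Elsewhere the order differed between the groups or within them. C1qc exceeded C3 in 4 of 4 ICI tumours but in 1 of 4 RI tumours, and so did C2 exceed Cfb. C1ra exceeded C4b in 5 of 8 tumours and Serping1 exceeded C1ra in 4 of 8, so these neighbours did not differ beyond their spread. Their exons, however, are not equally free of other genes: on GRCm38 79.5% of the exon bases of Cfb and 42.8% of those of C2 are shared with Gm20547, a gene model on the same strand with no row of its own. How the fragments there were assigned is not given in the sources used here, so the levels of C2 and Cfb are uncertain.

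The comparison of RI with ICI asks what radiation added to the inhibitor. On the log2(FPKM + 1) scale, which understates changes of low genes, 7 of the 9 genes reached 1 FPKM in at least 4 tumours and were tested with limma. Of these 7, C1ra and C3 rose, 0 fell and 5 did not pass. Among all 13439 genes tested 17.7% changed, 11.1% rising and 6.60% falling. The 7 had a positive difference each, with a median of 0.88, against 0.01 over all genes tested, of which 51.1% were higher in RI. C2 and Cfb were compared by an exact permutation test, and all 4 RI values of C1ra, C3 and Cfb lay above all 4 ICI values. For 16.7% of the genes tested this was so. At an unadjusted p under 0.05 limma had 3 members higher (C4b in addition) and 0 lower. The share of all genes under that unadjusted threshold is not given here. This count and the later ones at that threshold are therefore not read as an excess. Fitted to the recovered fragments instead, limma voom called C1ra and C3, and 0 falls. With each library centred on its median, 1500 of all genes rose and 1623 fell, and C1ra, C3 and C4b passed.

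**Figure D1:**
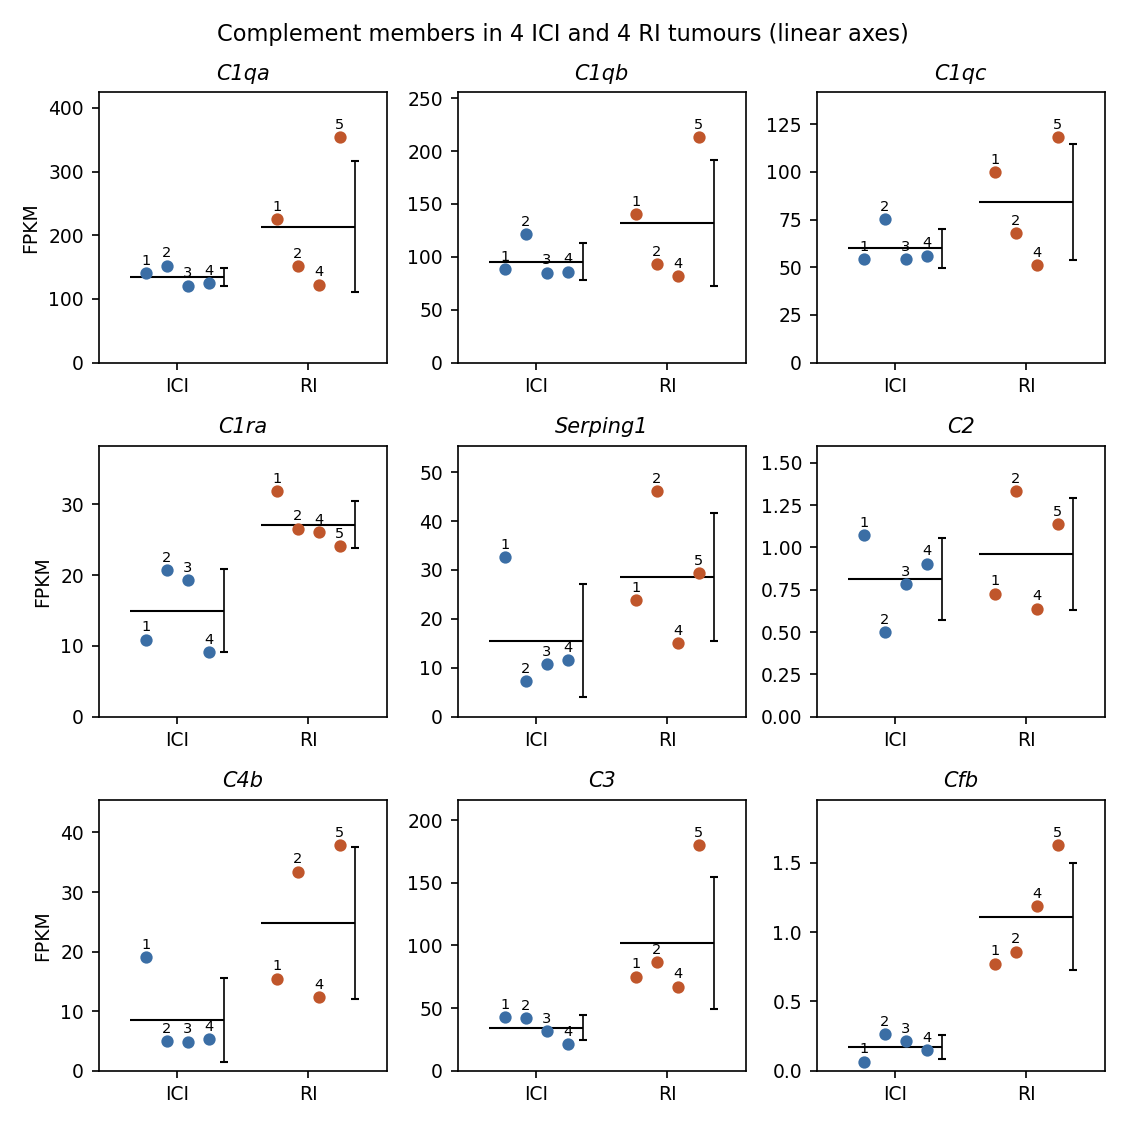
FPKM of the 9 complement genes in the 4 ICI (blue) and 4 RI (orange) tumours, 1 linear axis per gene; each point is a tumour labelled with its replicate number, horizontal lines are group means and bars 1 SD. The RI points lie wholly above the ICI points for C1ra, C3 and Cfb, and the 4 RI values of each C1q chain spread widely, RI 5 being highest and RI 4 lowest.

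C3, the central component whose fragments coat targets, had the lowest adjusted p of the members tested. Its gene spans bases 57203970 to 57228136 of chromosome 17 (ENSMUSG00000024164). It stood at 42.9, 41.7, 31.4 and 21.2 FPKM in ICI 1, 2, 3 and 4, and at 75.2, 86.4, 67.0 and 180 FPKM in RI 1, 2, 4 and 5. All RI tumours were higher than every ICI tumour, and RI 5 held the highest level. The mean of C3 was 34.3 ± 10.1 FPKM in ICI and 102 ± 52.6 in RI (SD, n = 4 each). On the log2 scale it rose by 1.48 (SE 0.34, limma, Benjamini-Hochberg adjusted p = 0.0223). With 1 tumour left out it passed in 6 of 8 fits, failing without ICI 4 (adjusted p = 0.0663) and without RI 2 (adjusted p = 0.0556), and its difference stayed between 1.17 and 1.64. It also did not pass when all 32098 genes were tested without the filter on low values (adjusted p = 0.0765).

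Cfb, factor B, partners C3 in the amplification loop. Its gene (chromosome 17, 34856374 to 34862518, ENSMUSG00000090231) lies 85 bases from C2 on the same strand. Cfb was at 0.0645, 0.263, 0.212 and 0.150 FPKM in ICI 1, 2, 3 and 4 and at 0.773, 0.858, 1.19 and 1.63 in RI 1, 2, 4 and 5. These values rest on 6, 30, 22 and 18 fragments in ICI and on 59, 78, 122 and 196 in RI. Every RI tumour was above every ICI tumour, with the lowest level in ICI 1. The ratio of group means was 6.45, the mean log2(FPKM + 1) differed by 0.83, and the two-sided exact permutation test gave p = 0.0286, the smallest that 70 regroupings allow. Limma over all genes without the filter gave Cfb an unadjusted p of 0.000833 and an adjusted p of 0.0552. The exact p is that of a single gene without adjustment, and with the adjustment over all genes Cfb did not pass.

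C2, the classical pathway protease related to factor B, was at 1.07, 0.4995, 0.781 and 0.904 FPKM in ICI 1, 2, 3 and 4 and at 0.727, 1.33, 0.639 and 1.14 in RI 1, 2, 4 and 5. The groups overlapped throughout, with means of 0.815 and 0.959 FPKM (two-sided exact permutation p = 0.543). The log2 ratio of Cfb to C2, with 1 added to each FPKM, averaged −0.62 in ICI and 0.11 in RI. The difference of 0.73 had an exact permutation p of 0.0571 (adjusted p = 0.171 over 6 ratios). That ratio was highest in RI 4 at 0.42 and lowest in ICI 1 at −0.96. At such low levels the added 1 narrows the ratio. Without it the FPKM ratio was 0.0600, 0.527, 0.272 and 0.166 in ICI 1, 2, 3 and 4. In RI 1, 2, 4 and 5 it was 1.06, 0.644, 1.86 and 1.43, so the groups did not overlap, and this form was not tested.

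C4b encodes C4, whose larger fragment anchors the classical enzyme. It was at 19.1, 4.93, 4.86 and 5.25 FPKM in ICI 1, 2, 3 and 4 and at 15.4, 33.4, 12.4 and 37.9 in RI 1, 2, 4 and 5. All RI tumours exceeded ICI 2, 3 and 4, while ICI 1 lay above RI 1 and RI 4. The means were 8.54 ± 7.05 and 24.8 ± 12.7 FPKM (SD, n = 4 each), and the log2 difference of 1.52 (SE 0.49) did not pass in limma (adjusted p = 0.0643). Without ICI 1 the difference was 1.95 and passed (adjusted p = 0.0146). It passed as well with median centring (adjusted p = 0.0471), upper-quartile scaling (adjusted p = 0.0453) and TPM (adjusted p = 0.00636). Of all 22 other settings, however, C4b passed in 6, with a limma adjusted p of up to 0.298. Without ICI 1 was the only one of the 8 fits with 1 tumour left out in which it passed. C4a, a closely related gene 65209 bases away whose fragments could have been shared, averaged 0.666 FPKM in ICI and 0.840 in RI.

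Serping1 encodes the C1 inhibitor, which inactivates C1r and C1s. It stood at 32.6, 7.29, 10.8 and 11.5 FPKM in ICI 1, 2, 3 and 4 and at 23.8, 46.1, 15.03 and 29.3 in RI 1, 2, 4 and 5. As for C4b, ICI 1 was the only ICI tumour within the RI range. The difference of 0.95 (SE 0.46) did not pass in limma (adjusted p = 0.174), and its 95% interval reached from −0.09 to 1.99. Without ICI 1 it was 1.36 and passed (adjusted p = 0.0290).

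C1ra, the protease that starts the cascade within C1, was at 10.9, 20.7, 19.3 and 9.14 FPKM in ICI 1, 2, 3 and 4 and at 31.9, 26.6, 26.0 and 24.1 in RI 1, 2, 4 and 5. The RI tumours lay close together, whereas ICI 1 and ICI 4 lay well below ICI 2 and ICI 3, and the groups did not overlap. C1ra (chromosome 6, 124512405 to 124523443, ENSMUSG00000055172) averaged 14.99 ± 5.82 FPKM in ICI and 27.1 ± 3.32 in RI (SD, n = 4 each), and rose by 0.88 on the log2 scale (SE 0.25, limma adjusted p = 0.0413). The call was narrow: with 1 tumour left out it held without ICI 2 or ICI 3 and was lost in the other 6 fits, with adjusted p from 0.0617 without ICI 1 to 0.104 without ICI 4. It was also lost with TPM (adjusted p = 0.223) and without the filter (adjusted p = 0.126).

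The other genes of the chromosome 6 cluster stood higher in RI too. C1s2, a copy of the C1s protease gene, was at 0.981, 1.57, 1.79 and 0.450 FPKM in ICI 1, 2, 3 and 4 and at 4.39, 3.14, 3.54 and 3.16 in RI 1, 2, 4 and 5. It rose by 1.09 on the log2 scale (SE 0.22, limma adjusted p = 0.0168) and passed with each tumour left out in turn, but not without the filter (adjusted p = 0.0586). C1rb rose from 3.36 to 6.01 FPKM (adjusted p = 0.0423), but with 1 tumour left out it passed only without ICI 2 (adjusted p = 0.0328). It did not pass with TPM (adjusted p = 0.262) or without the filter (adjusted p = 0.127). C1s1, the main C1s gene, had 17.8 ± 6.77 FPKM in ICI and 26.8 ± 3.71 in RI (SD, n = 4 each; adjusted p = 0.110), and C1rl 4.49 and 6.07 (adjusted p = 0.264). The genes of each pair are near copies whose fragments could have been split between them. Summed over the pair, C1ra and C1rb stood at 11.7 to 25.5 FPKM in the ICI tumours and 29.1 to 39.4 in the RI tumours, a ratio of means of 1.81 with no overlap. C1s1 and C1s2 together had 10.995 to 26.7 and 25.7 to 35.6 FPKM, a ratio of 1.597, with ICI 2 above RI 4. The log2 ratio of C1ra to its inhibitor Serping1 differed by −0.06 between the groups (exact permutation p = 0.943), with averages of 0.09 in ICI and 0.03 in RI.

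**Figure D2:**
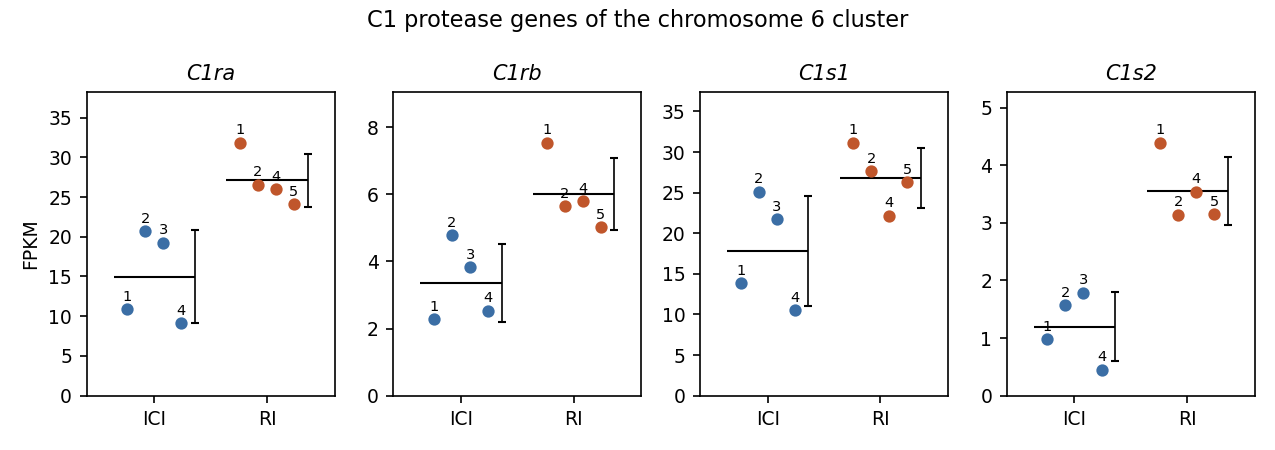
FPKM of 4 C1 protease genes that lie together on chromosome 6 in the ICI (blue) and RI (orange) tumours, 1 linear axis per gene; points are tumours labelled by replicate number, lines are means and bars 1 SD. In each panel RI 1 is highest among all 8 tumours and ICI 4 is lowest or next to lowest.

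C1qa, C1qb and C1qc encode the 3 chains of C1q and lie together on chromosome 4 (136880129 to 136898803). C1qa was at 140, 152, 121 and 125 FPKM in ICI 1, 2, 3 and 4 and at 225, 152, 123 and 354 in RI 1, 2, 4 and 5. C1qb was at 88.6, 122, 85.1 and 86.1 in ICI and at 140, 92.8, 82.1 and 213 in RI, in the same order of tumours. C1qc was at 54.4, 75.1, 54.2 and 56.1 in ICI and at 99.8, 67.8, 51.0 and 118 in RI. In all 3 genes RI 5 and RI 1 were the highest tumours and RI 2 and RI 4 lay within or near the ICI range. The log2 differences were 0.55 for C1qa (95% interval −0.14 to 1.23), 0.38 for C1qb (−0.28 to 1.04) and 0.42 for C1qc (−0.17 to 1.02). None passed in limma (adjusted p = 0.224, 0.381 and 0.275), and at these intervals a rise of 2-fold, a log2 difference of 1, was within reach for each. After each library's trend on gene length and GC content was removed C1qa passed, with a difference of 0.95 (adjusted p = 0.0337).

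The ratios between the chains spanned a narrower range than their levels. The FPKM ratio of C1qa to C1qb lay between 1.25 in ICI 2 and 1.66 in RI 5, and that of C1qc to C1qb between 0.554 in RI 5 and 0.730 in RI 2. On the log2 scale the ratio of C1qa to C1qb differed by 0.17 between the groups (exact permutation p = 0.0571, adjusted p = 0.171 over 6 ratios) and that of C1qc to C1qb by 0.04 (p = 0.657, adjusted p = 0.789, exact permutation test). Of the 6 ratios tested, which included C4b to C2 and C3 to Cfb (differences of 1.41 and 0.65, both adjusted p = 0.171, exact permutation test), 0 passed, and 0 had an unadjusted p under 0.05. The sign of the C3 to Cfb difference depended on the constant added to FPKM, since with 0.1 in place of 1 it was −0.65. With no constant the FPKM ratio of C3 to Cfb was 665, 158, 148 and 141 in ICI 1, 2, 3 and 4. It was 97.2, 101, 56.4 and 111 in RI 1, 2, 4 and 5, below every ICI tumour. In ICI this ratio rests on 6 to 30 fragments of Cfb, and it was not tested in this form. The sign for C1ra to Serping1 changed with the tumour left out.

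Within groups the members formed sets that went up and down together, shown here as Pearson correlations over the 8 tumours of deviations from the group mean of log2(FPKM + 1). The tumours share a sequencing table and are few, so the values are a description. The C1q chains correlated at 0.94 to 0.97 with one another, and C3 at 0.64 to 0.77 with them. C4b, C2 and Serping1 formed another set, with 0.91 between C4b and Serping1, 0.87 between C2 and Serping1 and 0.82 between C4b and C2. C1ra went against that set, with −0.44 to C4b, −0.59 to C2 and −0.47 to Serping1. C1ra itself varied less in RI (24.1 to 31.9 FPKM) than in ICI (9.14 to 20.7). ICI 1, with C1ra at 10.9 FPKM, was the highest ICI tumour for C4b, C2 and Serping1. All these correlations include ICI 1 and are not given for each group apart. C2 and Cfb, neighbours on the chromosome, were at −0.13.

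**Figure D3:**
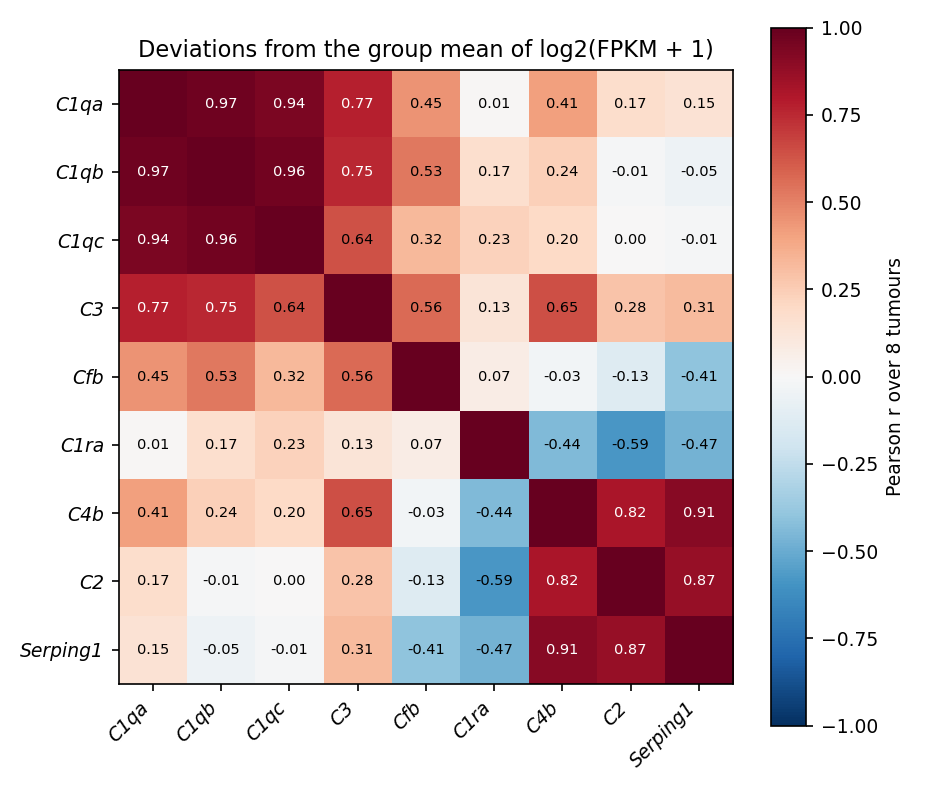
Pearson correlation between the 9 genes over 8 tumours, computed on deviations of log2(FPKM + 1) from each group's mean; red is positive and blue negative, and each cell prints its value. The C1q chains with C3 and the trio C4b, C2 and Serping1 appear as red squares, and C1ra is blue against the latter.

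By the same measure, among 11561 other named genes tested, the pattern most like the mean of the C1q chains was that of Tnfrsf19 (r = 0.994), followed by Morc2a (0.984), Dlx4os (0.982), Hexim2 (0.970) and Btbd19 (0.970). For C3 these were Zkscan6 (0.977), Ccl6 (0.974), Rnf141 (0.961), Siglec1 (0.961) and Bcl2l1 (0.952). Nearest to Serping1 were Cygb (0.987), Stradb (0.985), Wdr26 (0.984), Fam110d (0.980) and Tmem88 (0.978). Cfb was most like Gpr161 (0.967), Arhgap6 (0.965), Srgap3 (0.965), Snora69 (0.949) and Zmat5 (0.946). These genes were picked as the highest of many correlations over 8 tumours, so the values carry no test.

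The rest of the complement system was followed with a list of 48 genes, of which 42 had a row and 22 were tested. In limma 4 rose, C1s2, C1rb, C3ar1 and Lrp1, and 0 fell, which is 18.2% of those tested and near the 17.7% of all genes. Their median log2 difference was 0.36, with 18 higher and 4 lower. At an unadjusted p under 0.05 there were 7, all of them higher, again with no share of all genes at that threshold to set beside them. Limma voom gave the same 4 genes. Without ICI 1, C1qbp, a mitochondrial C1q-binding protein, passed as lower in RI, with a difference of −0.52 (adjusted p = 0.0288). Of the 10 receptors and C1q-binding proteins tested, 2 rose. C3ar1, the receptor for the C3a fragment, was at 2.71, 5.79, 4.77 and 4.48 FPKM in ICI 1, 2, 3 and 4 and at 10.6, 9.74, 7.71 and 8.55 in RI 1, 2, 4 and 5. The groups did not overlap, and the difference was 0.92 (SE 0.19, limma adjusted p = 0.0179). It was not called without ICI 4 (adjusted p = 0.0555), without RI 2 (adjusted p = 0.0547), with TPM (adjusted p = 0.135) or without the filter (adjusted p = 0.0637).

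Lrp1, a large endocytic receptor that binds C1q among many ligands, rose from 28.7 ± 3.92 to 53.1 ± 5.03 FPKM (SD, n = 4 each; limma adjusted p = 0.0130) and passed with each tumour left out in turn, but not with TPM (adjusted p = 0.265). The most abundant of this group, Calr and Itgb2, did not pass: Calr, calreticulin, averaged 219 and 230 FPKM (adjusted p = 0.743), and Itgb2, the shared beta chain of complement receptors 3 and 4, 90.9 and 113 (adjusted p = 0.362). C5ar1, the receptor for C5a, had 15.5 FPKM in ICI, with 36.1 in ICI 1, and 11.2 in RI (adjusted p = 0.8295). Itgam, the alpha chain of complement receptor 3, had 19.9 FPKM in ICI, with 53.0 in ICI 1, and 6.002 in RI (adjusted p = 0.190).

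**Figure D4:**
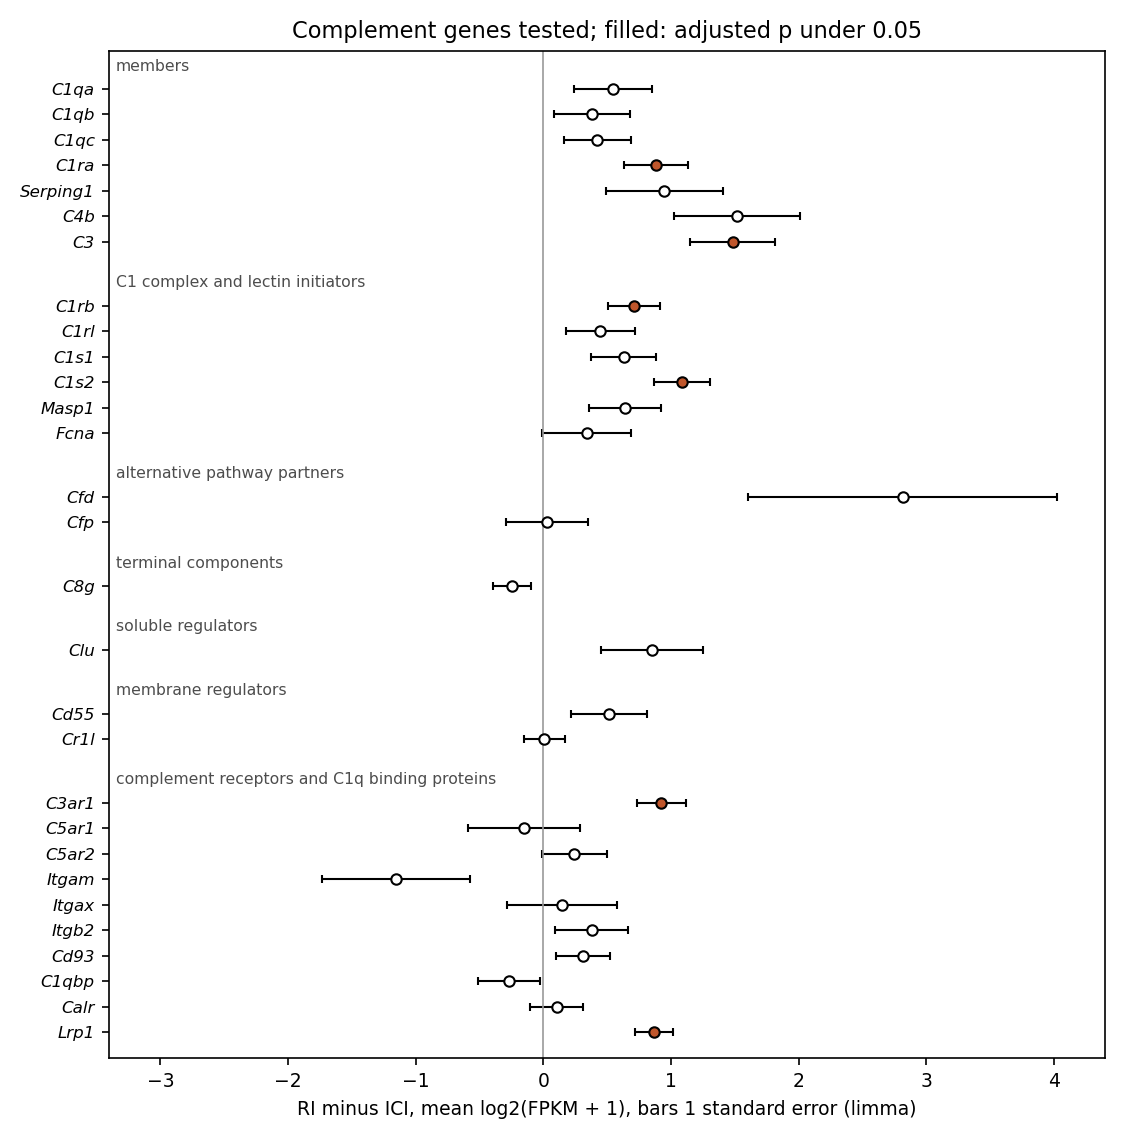
Difference RI minus ICI in mean log2(FPKM + 1) for the complement genes tested, by role, with bars of 1 standard error from limma; filled points passed at an adjusted p under 0.05. The 6 filled points, C1ra, C3, C1rb, C1s2, C3ar1 and Lrp1, all lie to the right of 0, and the 4 points to the left did not pass.

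Initiators beyond the cluster did not pass. Masp1, a protease of the lectin pathway, averaged 1.94 and 3.30 FPKM (limma adjusted p = 0.132) and passed without ICI 2, with a difference of 0.88 (adjusted p = 0.0478). Fcna, a pattern-binding ficolin, averaged 18.6 and 27.2 FPKM (adjusted p = 0.506), with 54.0 in RI 5. Of the alternative pathway partners Cfp, properdin, stood at 40.7 and 40.8 FPKM (adjusted p = 0.961). Cfd, factor D or adipsin, which cuts factor B and is abundant in fat, was at 4.35, 0.269 and 3.43 FPKM in ICI 1, 2 and 3, was listed at 0 in ICI 4, and stood at 5.90, 223, 3.34 and 10.03 in RI 1, 2, 4 and 5 (adjusted p = 0.133). The level of Cfd in RI 2 went with the summed FPKM of 5 adipocyte markers, 128 in RI 2 against 2.84 to 8.58 in the other 7 tumours, and its part in the difference was not tested.

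Of the regulators and terminal components that were tested with limma, none passed. Clu, clusterin, which blocks the terminal complex, averaged 43.8 ± 18.2 FPKM in ICI and 79.2 ± 38.1 in RI (SD, n = 4 each; limma adjusted p = 0.162). Of the membrane regulators, Cr1l averaged 4.20 FPKM in both groups (adjusted p = 0.983), and Cd55 0.939 in ICI and 1.56 in RI (adjusted p = 0.241). Without ICI 1, Cd55 passed with a log2 difference of 0.83 (adjusted p = 0.0158). Cfi, factor I, which inactivates C3b and C4b, was far below the filter, at 0.0447 to 0.0982 FPKM in the ICI tumours (4 to 8 fragments). It was listed at 0 in RI 1, RI 2 and RI 5 and at 0.0124 FPKM (1 fragment) in RI 4. All RI values of Cfi lay below all ICI values, the reverse of Cfb, with the same exact permutation p of 0.0286, and limma without the filter gave an adjusted p of 0.0797. Of the terminal components C8g alone was tested, at 1.65 and 1.22 FPKM (adjusted p = 0.272), with all 4 RI tumours below all 4 ICI tumours. Hc, which encodes C5, and C7 were highest in ICI 1, at 15.4 and 19.98 FPKM, while the other 7 tumours had at most 3.64 and 0.659.

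Markers of several cell types changed, to be read against the 17.7% of all genes. Of 8 macrophage markers tested 2 rose in limma (25%), Adgre1 from 1.22 to 7.68 FPKM (adjusted p = 0.00158) and Mrc1 from 7.68 to 26.5 (adjusted p = 0.0207), and 0 fell. Mrc1 did not pass without ICI 4 (adjusted p = 0.0629), without RI 2 (adjusted p = 0.0580) or without the filter (adjusted p = 0.0705). Cd68 was at 60.6 and 55.3 FPKM (adjusted p = 0.559). The summed FPKM of all 10 macrophage markers, mostly Apoe, was 344 to 610 in ICI and 311 to 952 in RI. It was highest in RI 5 and lowest in RI 4, which were also the highest and the lowest RI tumours for each C1q chain. The ICI tumours showed no such match. There the sum was highest in ICI 1, at 610, while each C1q chain was highest in ICI 2, where the sum was 380. Of 9 fibroblast markers tested 4 rose (44.4%), Col1a1, Col1a2, Col3a1 and Lum, and the other 5 did not pass. With 1 tumour left out these 4 passed in 5, 2, 2 and 3 of 8 fits, in that order. The list of 10 fibroblast markers summed to 66.1 to 86.7 FPKM in ICI and 124 to 542 in RI. RI 2, with the highest sum, also had the highest Serping1, but ICI 1 had the next highest Serping1, 32.6 FPKM, at a sum of 71.2. Hepatocyte markers were at or near 0, with a sum of at most 1.88 FPKM in any tumour and Alb, Apoa1, Apoa2 and Fgb under 0.1 FPKM on average. Of mast cell markers 3 of 5 tested rose and of skeletal muscle markers 2 of 5. Falls were called for 2 of 7 neutrophil, 2 of 4 erythroid, 1 of 4 B and plasma cell, 1 of 5 T cell and 1 of 5 tumour epithelial markers (Cldn3), and for 0 of 4 endothelial markers, of which 1 had an unadjusted p under 0.05. The part of these cell types in the complement differences was not tested.

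Among 14 genes known to induce complement genes, 12 were tested, of which 1 rose and 1 fell in limma, 16.7% of those tested and near the 17.7% of all genes. Jak2, a kinase of interferon and interleukin receptors, went from 15.8 to 28.3 FPKM (adjusted p = 0.0173). Cebpb, whose product belongs to the C/EBP factors, went from 271 to 142 FPKM (adjusted p = 0.0260). Jak2 was not called without ICI 4 (adjusted p = 0.0574), and Cebpb was not called in 6 of 8 fits with 1 tumour left out, all but those without ICI 1 or ICI 4 (adjusted p from 0.0528 without RI 4 to 0.0637 without RI 1). Neither was called with TPM or without the filter. Irf1, an interferon-induced transcription factor, averaged 52.4 and 61.8 FPKM (adjusted p = 0.671), and Ifng was at 0.537 and 0.513 FPKM, under the filter.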

How the data were processed

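The deposited values are FPKM made by the authors, 1 column per tumour. HISAT2 and GRCm38 (mm10) are named, without version, per the submitters' processing notes, but the counting program, annotation and filters were not given in the sources used here. Of 32098 rows, 31407 matched GENCODE M21 (GRCm38) by identifier, which gave positions and exon lengths. The fragments behind low values were recovered from FPKM and exon length, and 98.6% to 98.8% of values up to 50 fragments lay within 0.05 of a whole number.

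Genes that reached 1 FPKM in 4 or more of the 8 tumours were tested on log2(FPKM + 1) with limma 3.58.1 (R 4.3.3; two-sided moderated test, eBayes with its trend and robust options, Benjamini-Hochberg over 13439 genes, changed at an adjusted p under 0.05). Means and SDs are of FPKM. Members below the filter and 6 ratios were compared by two-sided exact permutation tests over 70 regroupings. Both were taken on the log2 scale after 1 was added to each FPKM. Replicate numbers 1, 2 and 4 occur in both groups, but the labels do not say that they pair tumours. Genes are named by rule: the 9 members, complement genes that passed or led their role by mean FPKM, and leading or changed markers. Some others (Masp1, C5ar1, Itgam, C4a and C1rl, and Epcam, Krt5 and Ifng) were named with their values seen. Some items of the lists are not reported here. The members, lists and tests were chosen with earlier results of these data known.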

Additional observations from a re-analysis of the deposited data

Results flagged for a closer look

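In groups of 4, the gap from the highest or the lowest tumour to its nearest neighbour was set against the group's range. This was done for 44 genes named by rule or in the text, which gave 84 gene and group combinations with a value of at least 0.5 FPKM. Of these 14 were marked, 8 of them in ICI 1. Chance marks about 1 in 20 of independent groups chosen without regard to their values, which these are not. Genes of the same library vary together, and C5ar1, Itgam and Masp1 were named with their values seen. Vtn reached 0.5 FPKM only through its marked tumour in each group. The number marked is therefore a description and is not set against chance. In ICI 1 these were C4b at 19.1 FPKM (the other ICI tumours had at most 5.25), Serping1 at 32.6 (at most 11.5), C7 at 19.98 (at most 0.659), Cd55 at 2.46 (at most 0.582), Cr1l at 5.61 (at most 3.79), C5ar1 at 36.1 (at most 10.7), Itgam at 53.0 (at most 11.5) and Vtn, vitronectin, at 2.35 (at most 0.429). In ICI 2 they were C1qb at 122 FPKM (at most 88.6) and C1qc at 75.1 (at most 56.1), and in ICI 3 it was Adgre1 at 1.47 (at most 1.15). In RI 2 they were Cfd at 223 FPKM (at most 10.03 in the other RI tumours), Vtn at 1.76 (at most 0.324) and, as a low value, Masp1 at 2.67 (at least 3.46).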

How the results depend on the processing

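The 7 members tested were higher in RI under all 22 other settings. Of 2 members, 4 other complement genes and 2373 genes changed, there were 0, 1 and 241 without the filter and 4, 7 and 4319 with array weights, in that order. The other complement genes numbered 2 at a mean FPKM of at least 5. With TPM they numbered 1 and all genes 280, and the median log2 difference of all genes with TPM was 0.11, against 0.01. TPM divides by the summed FPKM, which was 717092 in RI 4, 60.7% of it from rows of ribosomal RNA type. In RI 1, RI 2 and RI 5 it was 358243 to 367797, so TPM lowers the other genes in RI 4. Of all calls 62.6% were rises, against 48.0% with median centring and 78.8% without the filter. With the replicate block the counts were 0, 0 and 22, and with the block and the length and GC correction 0, 0 and 3. The numbers of ICI 3 and RI 5 occur in 1 group only, so with the block these tumours added nothing to the difference. The blocked fits thus rest on fewer tumours, and their counts are not like for like with the others. Same-numbered tumours did not deviate together (correlations of −0.0923, −0.120 and −0.124), so the numbers are no shown pairing. With 1 tumour left out the counts ran from 0 to 3 members (0 without ICI 4 or RI 2 and 1 without RI 1, RI 4 or RI 5), from 2 to 5 other complement genes (2 without ICI 4 or RI 2) and from 336 (without ICI 4) to 2693 genes (without ICI 1), with 672 without RI 2, 999 without RI 1 and 1017 without RI 5. Without both ICI 1 and RI 4, C3, C4b and Serping1 passed and C1ra did not, and the difference of Cfb was 0.77 with an exact permutation p of 0.1, the smallest for 3 against 3. Limma voom was added after seeing the data. Low depth limits Cfb in ICI (6 to 30 fragments).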
